A study of Homo sapiens with 15 samples.

Results

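The genes described here encode subunits of the mitochondrial respiratory chain and of ATP synthase, in both the nuclear and the mitochondrial genome, in MCF10A cells kept at limited glutamine. Members were chosen by a symbol rule, set with earlier results of these data known. They are protein-coding genes whose symbols begin with NDUFA followed by a digit, NDUFAB1, NDUFB, NDUFC, NDUFS, NDUFV, UQCR, ATP5F1, ATP5M or ATP5P, together with CYC1, CYCS and named nuclear subunits of cytochrome c oxidase, and the 13 mitochondrial mRNAs. They came to 91 of 62754 Ensembl genes in the count table, of which 78 are nuclear and 13 mitochondrial. By complex the nuclear members were 37 for complex I, 10 for complex III, CYCS as the mobile carrier, 11 for complex IV and 19 for complex V, and the mitochondrial members were 7, 1, 3 and 2 for complexes I, III, IV and V. All 13 mitochondrial members and 76 nuclear members had enough counts to be tested, and ATP5MF-PTCD1 and ATP5MGL did not.

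The respiratory chain passes electrons from NADH through complex I, ubiquinone, complex III, cytochrome c and complex IV to oxygen, and ATP synthase (complex V) uses the proton gradient they build to make ATP. Its subunits come from 2 genomes: the mitochondrial DNA is read into long transcripts that are cut, mostly at tRNAs, into the separate mRNAs, while the nuclear subunits are transcribed gene by gene, translated in the cytosol and imported. Glutamine is a carbon source for the citric acid cycle, which supplies the chain with NADH, and a nitrogen donor for nucleotides and amino acids.

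MCF10A is a non-tumour human breast epithelial line, labelled wild type. Cells grew in glutamine-free DMEM/F12 with glutamine added back to 0.04 mM, 0.12 mM, 0.20 mM or 0.28 mM, or in full medium at 2.5 mM, with 3 biological replicates per group and 15 libraries in all. The labels give a maintenance medium of DMEM/F12 with mammary epithelial growth supplements, cholera toxin and penicillin-streptomycin, and neither a time at each concentration nor any agent that separates the groups other than glutamine. Total RNA was depleted of ribosomal RNA, spiked with ERCC standards and sequenced.

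Depth was 3704170 to 13361406 gene counts per library. The summed level of 11 epithelial markers was 17779 to 31159 CPM, the counts scaled to library size over the 15 libraries, and that of 5 immune markers 0 to 0.54 CPM. The sum of 7 fibroblast markers, of which 2 had enough counts to be tested and LUM was at 0, was 50.4 to 61.0 CPM at 0.04 mM, against 33.3 to 45.8 CPM in full medium, and that of 4 endothelial markers, with CDH5 at 0, was 5.84 to 12.2 CPM at 0.04 mM, against 3.77 to 5.68 CPM in full medium. The fibroblast sum was 47.8 to 55.5 CPM at 0.12 mM, 41.1 to 56.3 CPM at 0.20 mM and 37.5 to 54.8 CPM at 0.28 mM. The endothelial sum was 6.51 to 9.69, 7.15 to 8.3 and 4.99 to 8.85 CPM in the same order. Higher sums than in full medium were thus not particular to 0.04 mM. The part of these markers in the results was not tested. Mitochondrial ribosomal RNA, a target of the depletion, made up 2.97% of gene counts in 0.04 mM replicate 3 and 1.62% in 0.12 mM replicate 3, 0.402% in 0.20 mM replicate 1 and at most 0.044% elsewhere. Libraries of different groups that carry the same replicate number had correlated deviations from their group means. Fold changes below are therefore log2 fold changes from a fit that takes replicate number as a block, with 1 standard error, and p-values come from the quasi-likelihood test of edgeR, adjusted by Benjamini-Hochberg over 13828 genes, where "rose" and "fell" mean an adjusted p under 0.05. Counts at an unadjusted p under 0.05 are given without their share over all genes, and are not read as a result about the members. Without the block, 0 members passed in any comparison by edgeR or by DESeq2. These are levels in bulk RNA, in which fewer cells of a type and less RNA per cell cannot be told apart.

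Per kilobase of exon the mitochondrial mRNAs stood far above the nuclear members. The median over all 15 libraries was 558 CPM per kb for the 7 mitochondrial complex I mRNAs and 30.0 CPM per kb for the 37 nuclear ones. The nuclear lengths merge the exons of a gene's transcripts, as with 11918 bp for NDUFS1. This lowers nuclear levels per kb and can change their order. Within complex I the mitochondrial level ran between 65.1 for MT-ND6 and 1335 CPM per kb for MT-ND4, both subunits of the proton-pumping membrane arm, and the nuclear level between 1.18 for NDUFA13 and 229 CPM per kb for NDUFS5, both accessory subunits. NDUFA13 shares 26.5% of its exonic bases with other genes, so its level is uncertain. MT-CYB, the cytochrome b that carries electrons within complex III, had 1003 CPM per kb. CYC1, which encodes cytochrome c1, was the highest nuclear member of that complex per kb at 184, and UQCRHL, a copy of UQCRH, had 0.561. Without the length, UQCRC1 had a higher mean (286 CPM) than CYC1 (228 CPM). The catalytic core of complex IV had 2911 CPM per kb for MT-CO3, 2613 for MT-CO2 and 2353 for MT-CO1, and the nuclear subunits 34.6 (COX7B) to 154 CPM per kb (COX4I1). COX7B has 3024 bp of merged exon, and its mean of 105 CPM was above those of COX6A1 (30.5) and COX8A (38.3). ATP5F1B, the catalytic beta subunit of ATP synthase, was the highest nuclear member of all at 485 CPM per kb, beside 756 for MT-ATP6 and 111 for MT-ATP8, the membrane subunits a and 8.

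The summed level of the 13 mitochondrial mRNAs exceeded that of the 78 nuclear members in each of the 15 libraries. The mitochondrial sum was 19497, 12748 and 14785 CPM in replicates 1, 2 and 3 at 0.04 mM, 16980, 12325 and 11650 CPM at 0.12 mM and 16620, 10784 and 10261 CPM at 0.20 mM. It was 16824, 12985 and 13269 CPM at 0.28 mM, and 18986, 10540 and 8322 CPM in full medium. Replicate 1 was highest in 5 of 5 groups, and every limited group overlapped full medium. Replicate 1 was also the deepest library of each group. Depth at 0.04 mM was 11228596, 6454088 and 3704170 gene counts in replicates 1, 2 and 3, the last being the shallowest library of all. In full medium it was 11442044, 9183710 and 7451107. The part of depth in the mitochondrial sums was not tested. The nuclear sum was flatter, at 6852 to 7256 CPM at 0.04 mM, 7028 to 7936 CPM at 0.12 mM, 6932 to 7902 CPM at 0.20 mM, 7120 to 7920 CPM at 0.28 mM and 6944 to 8065 CPM in full medium.

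**Figure D1:**
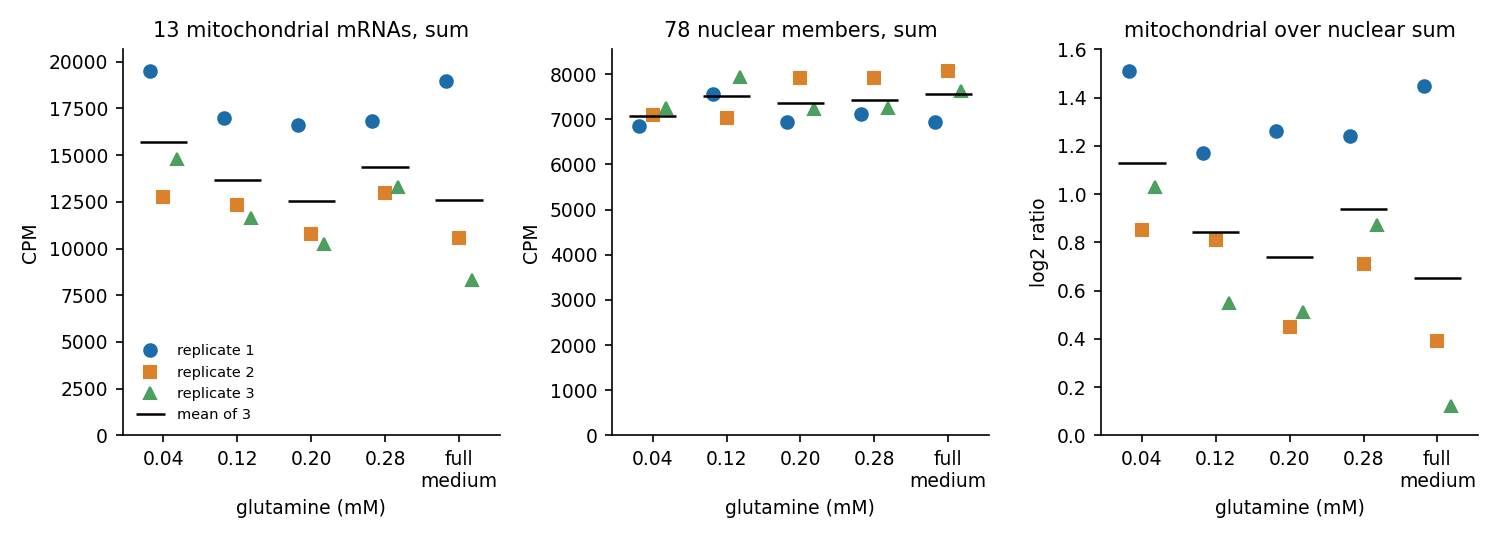
Summed level per library of the 13 mitochondrial mRNAs (left, CPM), of the 78 nuclear members (middle, CPM) and the log2 ratio of the mitochondrial to the nuclear sum (right), by glutamine concentration. Symbols are the 3 replicate numbers and bars the mean of 3 libraries. Replicate 1 has the highest mitochondrial sum in all 5 groups, and the lowest ratio of all, 0.12, is in full medium replicate 3.

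The log2 ratio of the mitochondrial to the nuclear sum was 1.51, 0.85 and 1.03 at 0.04 mM, against 1.45, 0.39 and 0.12 in full medium, in replicates 1, 2 and 3. Within replicate numbers the ratio at 0.04 mM minus that in full medium was 0.06, 0.46 and 0.90, a mean of 0.47 ± 0.42 (SD, n = 3). The same differences averaged 0.19 ± 0.41 at 0.12 mM, 0.09 ± 0.29 at 0.20 mM and 0.29 ± 0.48 at 0.28 mM (SD, n = 3 each). The ratio of sums was higher in 3 of 3 pairs at 0.04 mM and in 2 of 3 at the other concentrations, where replicate 1 went the other way, and the groups overlapped at each concentration. All 4 comparisons use the same full medium libraries. Without the pair of replicate 3 the mean of the remaining pairs was 0.26 at 0.04 mM, 0.07 at 0.12 mM, −0.06 at 0.20 mM and 0.06 at 0.28 mM. Without the pair of replicate 1 it was 0.68, 0.43, 0.22 and 0.54, in the same order of concentrations. With the median member of each genome in place of the sum, the differences at 0.04 mM were −0.02, 0.49 and 0.95 in replicates 1, 2 and 3. That ratio was higher in 2 of 3 pairs at 0.04 mM, as at the other concentrations. No p is given for the sums or medians, because members and lists were chosen with results known.

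Replicate number accounted for more of the spread of the mitochondrial mRNAs than of other genes. The median SD within groups was 0.52 (log2 CPM) over the 13 mitochondrial mRNAs, 0.19 over the 76 nuclear members tested and 0.23 over all 13828 genes. With the replicate means removed it was 0.20, 0.16 and 0.15 in the same order of gene groups. On average over the 5 groups all 13 mitochondrial mRNAs were highest in replicate 1, with median deviations from the group mean of 0.47, −0.26 and −0.23 for replicates 1, 2 and 3. What the replicate numbers stand for is not stated in the labels, and their part in the mitochondrial differences between concentrations was not tested beyond the block.

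At 0.04 mM against full medium, 6 of the 13 mitochondrial mRNAs rose (46.2%) and 0 fell, where 7.21% of all genes tested rose and 6.23% fell. They were MT-CYB, MT-ND5, MT-ND6, MT-ND4, MT-ND2 and MT-CO1, that is 4 of the 7 complex I mRNAs, the complex III mRNA and 1 of the 3 complex IV mRNAs. The median change over the 13 was 0.37, against 0.00635 over all genes tested. Without the block 0 passed in edgeR (0.0434% of all genes, in either direction) and 0 in DESeq2, with 1 at an unadjusted p under 0.05 in each. Of all 13828 genes, DESeq2 without the block called 100 that rose and 55 that fell. With the block DESeq2 called 5 of the 13, all of which rose, where 995 of all genes rose and 740 fell.

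MT-CYB had 1672, 1146 and 1348 CPM at 0.04 mM, against 1218, 763 and 562 CPM in full medium, in replicates 1, 2 and 3. It was higher at 0.04 mM within each replicate number, although full medium replicate 1 lay above 0.04 mM replicate 2, so the groups overlapped. MT-CYB rose by 0.75 (SE 0.105, adjusted p = 1.47e-05, edgeR quasi-likelihood test), and without full medium replicate 3 or any other library left out in turn it still passed. It also rose by 0.55 at 0.12 mM (SE 0.104, adjusted p = 0.00109), by 0.33 at 0.20 mM (SE 0.104, adjusted p = 0.032) and by 0.60 at 0.28 mM (SE 0.105, adjusted p = 0.00194), comparisons that share the full medium libraries. At 0.20 mM the call was lost in 10 of 18 alternatives, among them each library left out except full medium replicate 1, and the change was 0.145 without full medium replicate 3. With ERCC scaling, which put the median change of all genes at −0.177 at 0.12 mM, −0.0448 at 0.20 mM and −0.129 at 0.28 mM, against 0.00472, 0.00328 and 6.75e-05 with TMM scaling, MT-CYB changed by 0.37 at 0.12 mM (adjusted p = 0.0574) and by 0.279 at 0.20 mM (adjusted p = 0.244).

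The complex I mRNAs that rose at 0.04 mM encode subunits of the membrane arm. MT-ND5 had 1580, 961 and 1245 CPM at 0.04 mM, against 1327, 657 and 516 CPM in full medium, and rose by 0.67 (SE 0.119, adjusted p = 0.000281). MT-ND4 had 2678, 1789 and 2058 CPM at 0.04 mM, against 2367, 1307 and 1017 CPM in full medium, and rose by 0.53 (SE 0.108, adjusted p = 0.00111). Both were higher in 3 of 3 pairs, with the smallest gap in replicate 1. MT-ND6, the mRNA of the light strand, had 77.9, 28.7 and 35.9 CPM at 0.04 mM, against 50.2, 23.0 and 18.5 CPM in full medium, and rose by 0.63 (SE 0.122, adjusted p = 0.000679). Its reads lie opposite other mitochondrial transcripts, and whether the counting used strand is not given in the sources used here, so its level is uncertain. MT-ND2 rose by 0.40 (SE 0.101, adjusted p = 0.00731) and MT-CO1 by 0.37 (SE 0.103, adjusted p = 0.0144), calls that both ended without full medium replicate 3, 0.04 mM replicate 3 or the 2 libraries with over 1% mitochondrial rRNA, that of MT-CO1 also without full medium replicate 2. Left out in turn, single libraries moved MT-ND2 between 0.222 and 0.578 and MT-CO1 between 0.213 and 0.554.

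The other 7 mitochondrial mRNAs did not pass at 0.04 mM. MT-ND1 changed by 0.35 (SE 0.129), MT-ND4L by 0.31 (SE 0.152), MT-ATP6 by 0.27 (SE 0.107), MT-ATP8 by 0.57 (SE 0.206), MT-CO2 by 0.14 (SE 0.0957) and MT-CO3 by 0.15 (SE 0.0868). With single libraries of the 2 groups left out in turn, the change of MT-ND1 ran from 0.116 to 0.674, that of MT-ND4L from 0.053 to 0.628, that of MT-ATP6 from 0.0731 to 0.467, that of MT-CO2 from −0.0207 to 0.292 and that of MT-CO3 from 0.0363 to 0.257. The lowest of each was without full medium replicate 3 and the highest without full medium replicate 1. For MT-ATP8 the range was 0.211 to 0.855, without 0.04 mM replicate 1 and without full medium replicate 2. MT-ND3 alone was below 0, at −0.27 (SE 0.14, adjusted p = 0.217). It had 239, 120 and 157 CPM at 0.04 mM, against 422, 138 and 110 CPM in full medium, so it was lower in replicates 1 and 2 and higher in replicate 3. Without full medium replicate 1 its change was 0.118, and without full medium replicate 3 it fell by 0.54 (adjusted p = 0.000949, edgeR quasi-likelihood test).

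Counts of mitochondrial calls turned on the full medium libraries. At 0.04 mM, 11 rose without full medium replicate 1, and 4 rose and 1, MT-ND3, fell without full medium replicate 3, whose mitochondrial sum was the lowest of the 15 libraries. Of all genes, 1056 of 14204 rose in the first of these fits, and 804 rose and 589 fell of 14179 in the second. At 0.04 mM 4 mitochondrial mRNAs rose without 0.04 mM replicate 3. With both libraries over 1% mitochondrial rRNA left out 4 rose as well, MT-CYB by 0.637, MT-ND6 by 0.605, MT-ND5 by 0.516 and MT-ND4 by 0.426. The mitochondrial rRNAs MT-RNR2 (4.33, SE 1.28, adjusted p = 0.0214) and MT-RNR1 (4.29, SE 1.3, adjusted p = 0.025) also passed at 0.04 mM, each at a standard error over 1. Their summed level was 216, 226 and 29707 CPM in replicates 1, 2 and 3 at 0.04 mM, against 231, 45.8 and 83.5 CPM in full medium. The high level was thus that of 1 library, replicate 3, and MT-RNR1 was higher in only 2 of 3 pairs. The part of the rRNAs in the mRNA differences was not tested beyond this.

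**Figure D2:**
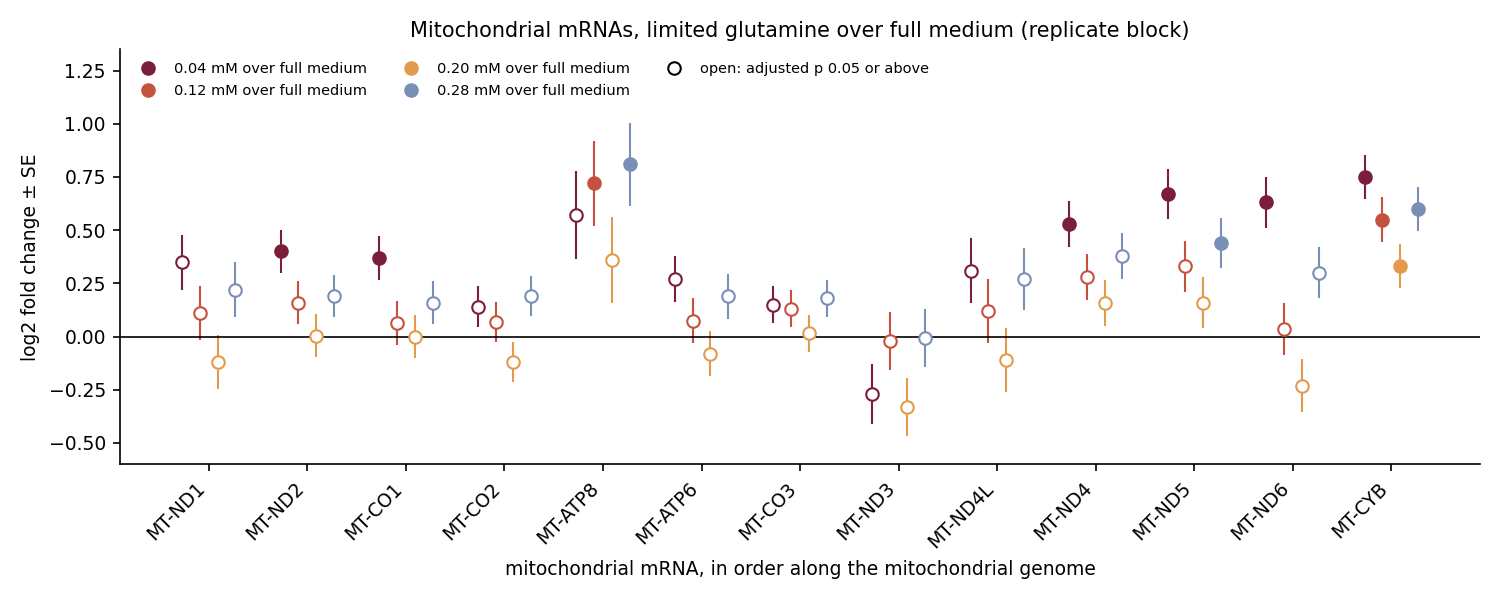
Log2 fold change (± SE, 3 libraries per group, replicate block) of the 13 mitochondrial mRNAs at 4 glutamine concentrations over full medium, in gene order along the mitochondrial genome. Filled points have an adjusted p under 0.05 and open points do not; MT-CYB is filled at all 4 concentrations, and MT-ND3 is below 0 at each.

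At the intermediate concentrations fewer mitochondrial mRNAs passed. At 0.12 mM 2 of 13 rose (15.4%, with 4.41% of all genes rising and 3.9% falling), MT-CYB and MT-ATP8 (0.72, SE 0.199, adjusted p = 0.0204). At 0.20 mM only MT-CYB of the 13 rose (7.69%, beside 7.67% of all genes rising and 7.15% falling), a share close to the background. At 0.28 mM 3 of 13 rose (23.1%, with 1.23% of all genes rising and 0.846% falling), MT-CYB, MT-ND5 (0.44, SE 0.119, adjusted p = 0.0478) and MT-ATP8 (0.81, SE 0.195, adjusted p = 0.0223). Without the block, edgeR called 0 of the 13 at each of these concentrations, where it called 0%, 0.0145% and 0% of all genes, and DESeq2 also called 0. Unadjusted p-values under 0.05 without the block numbered 2, 0 and 2 in edgeR and 1, 0 and 2 in DESeq2.

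These counts too depended on single libraries. The call of MT-CYB at 0.28 mM ended without 0.28 mM replicate 3 (0.417, adjusted p = 0.062), and that of MT-ND5 at 0.28 mM with each library left out except full medium replicate 1 (changes of 0.239 to 0.65). Without full medium replicate 1, 7 rose at 0.12 mM, 3 at 0.20 mM and 12 at 0.28 mM, where 734, 909 and 448 of 14204 genes rose. Without full medium replicate 3, 1 of the 13 rose at 0.12 mM, 5 fell and 0 rose at 0.20 mM, and 1 rose at 0.28 mM. Of 14179 genes, 402 rose there at 0.12 mM, 681 fell and 882 rose at 0.20 mM, and 46 rose at 0.28 mM. Leaving out 0.12 mM replicate 3 left 1 mitochondrial call at that concentration. Each 0.20 mM library left out in turn left 0 calls at 0.20 mM. Without 0.28 mM replicate 1, 2 or 3 there were 1, 1 and 0 calls at 0.28 mM. At 0.04 mM against 0.28 mM, a comparison without full medium, 0 of 13 passed (unadjusted p under 0.05 for 3 with the block, 0 without, and 0 adjusted calls by DESeq2), where 0.0145% of all genes rose and 0.0289% fell with the block and 0% were called without it.

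MT-ATP8 is the shortest mRNA gene of the set, and its last 46 of 207 bases are also the first bases of MT-ATP6 (GENCODE 29, GRCh38, chrM:8366-8572, plus strand). Its sequence is shown because reads from the shared bases, in capitals, belong to both genes:
MT-ATP8: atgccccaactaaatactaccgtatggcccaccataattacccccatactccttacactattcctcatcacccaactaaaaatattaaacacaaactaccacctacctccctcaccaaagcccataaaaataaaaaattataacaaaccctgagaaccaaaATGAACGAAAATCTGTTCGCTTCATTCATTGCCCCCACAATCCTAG
MT-ATP8 had 36.3, 13.5 and 20.5 CPM at 0.04 mM, 30.6, 16.9 and 33.4 CPM at 0.12 mM, 24.8, 12.4 and 24.6 CPM at 0.20 mM and 30.7, 24.7 and 28.1 CPM at 0.28 mM, against 20.9, 16.5 and 9.30 CPM in full medium. The groups overlapped at 0.04, 0.12 and 0.20 mM, and at 0.28 mM all 3 libraries lay above full medium. With 72 to 394 counts per library it had the fewest reads of the 13, and its calls at 0.12 and 0.28 mM both ended without full medium replicate 3 (lowest changes 0.414 and 0.506), the first also without 0.12 mM replicate 3 and the second without any of the 0.28 mM libraries. How the authors' counting treated reads that fall in 2 genes is not given in the sources used here.

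The make-up of the mitochondrial mRNA pool is a ratio within each library, so library scaling drops out of it. MT-CYB made up 8.57, 8.99 and 9.12% of the summed mitochondrial mRNA level at 0.04 mM and 7.98 to 9.12% over all 12 limited libraries, against 6.41, 7.24 and 6.75% in full medium. All 12 limited libraries lay above the 3 full medium libraries, which are the same in every comparison. MT-ND4 made up 13.1 to 14% in the 12 limited libraries, against 12.2 to 12.5% in full medium, again with no overlap. MT-CO2 had the opposite order at 12.1, 11.8 and 12.0% at 0.04 mM, against 13.7 to 14.4% in full medium, and 10 of the 12 limited libraries lay below full medium. MT-ND3 made up 0.938 to 1.22% at 0.04 mM, against 1.31 to 2.22% in full medium. These shares were chosen after their values were seen and have no test, and since shares add up to a whole, a higher share of some mRNAs goes with a lower share of others.

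**Figure D3:**
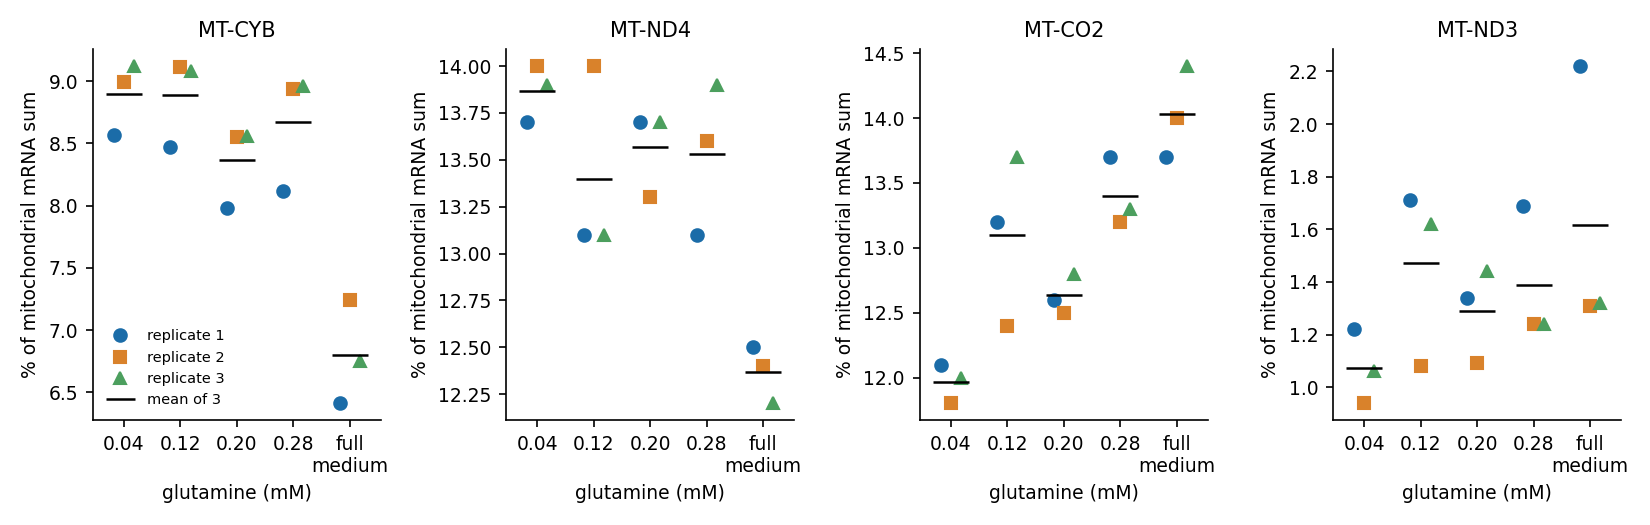
Share of MT-CYB, MT-ND4, MT-CO2 and MT-ND3 in the summed level of the 13 mitochondrial mRNAs (percent, axes not starting at 0) per library, by glutamine concentration. Symbols are replicate numbers and bars the mean of 3 libraries. For MT-CYB and MT-ND4 all 12 limited libraries lie above the 3 full medium libraries; for MT-CO2, the 3 libraries at 0.04 mM lie below all others.

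Nuclear pseudogene copies of mitochondrial mRNA genes could draw reads from them. The copies held 6 to 60 counts per library, against 54716 to 215653 for the mitochondrial mRNAs themselves, and none of the copies had enough counts to be tested. How reads that fit both places were treated is not given in the sources used here. These counts therefore cannot show whether such reads were lost or moved.

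At 0.04 mM the nuclear members that passed went the other way from the mitochondrial mRNAs that passed. Of 76 tested, 10 fell (13.2%) and 0 rose, where 6.23% of all genes fell and 7.21% rose, and the median change was −0.118, against 0.00635 over all genes tested. Values below 0 were seen for 60 of the 76, and 28 were lower in 3 of 3 pairs. These counts are given without their share over all genes and are not read as a result about the members. The log2 difference in the nuclear sum was −0.02, −0.19 and −0.07 in replicates 1, 2 and 3. In 11 of 76 all 3 libraries at 0.04 mM lay below all 3 of full medium and in 0 of 76 above, where 8.21% of all genes were below and 6.95% above, and of the 13 mitochondrial mRNAs none was clear of overlap in either direction. Without the block, 0 nuclear members passed in edgeR and in DESeq2 (unadjusted p under 0.05 for 7 in each), and with it DESeq2 called 8. All 8 fell, where DESeq2 with the block called 740 of all genes that fell and 995 that rose.

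By complex, 4 of 37 fell in complex I, 3 of 10 in complex III, CYCS itself, 0 of 11 in complex IV and 2 of 17 tested in complex V. Those of complex I include NDUFS8 and NDUFS3, core subunits of the arm that takes electrons from NADH, and 1 of 30 accessory subunits, NDUFB10. The core had a median change of −0.192 and the accessory subunits −0.107, and the difference between them was not tested.

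**Figure D4:**
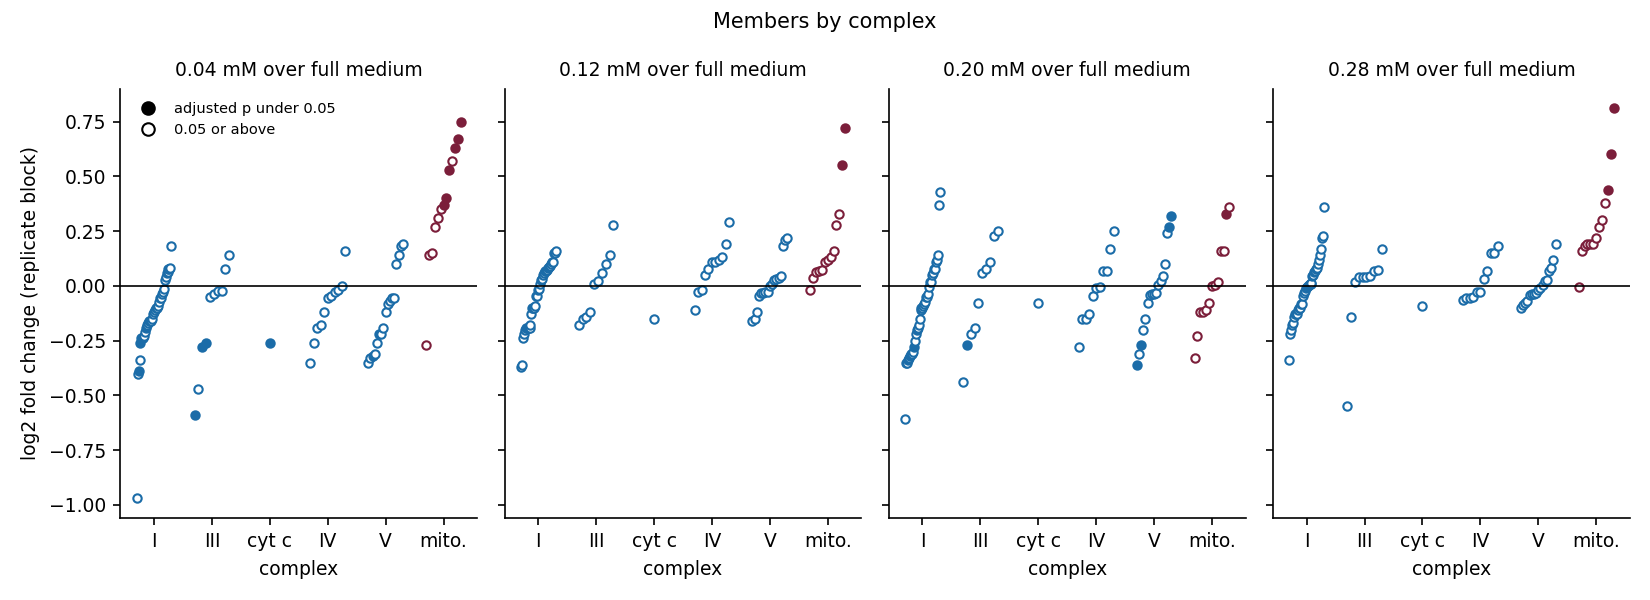
Log2 fold change (replicate block) of every tested member at the 4 limited glutamine concentrations over full medium, by complex for the 76 nuclear members (blue) and together for the 13 mitochondrial mRNAs (dark red, "mito."). Filled points have an adjusted p under 0.05; at 0.04 mM all filled nuclear points lie below 0 and all filled mitochondrial points above 0, and no nuclear complex IV point is filled at any concentration.

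NDUFB10, an accessory subunit of the complex I membrane arm (GRCh38.p14, chr16:1959538-1961975), had 76.3, 67.9 and 65.9 CPM at 0.04 mM, against 100, 90.8 and 82.9 CPM in full medium. All 3 limited libraries lay below all 3 of full medium. It fell by 0.39 (SE 0.0797, adjusted p = 0.00129), and passed with each library left out in turn, but not with ERCC scaling (adjusted p = 0.065) or with all libraries thinned to the depth of the shallowest (adjusted p = 0.116). At 0.20 mM it had 84.5, 76.5 and 65.6 CPM and fell by 0.28 (SE 0.0760, adjusted p = 0.0137), and passed no longer without 0.20 mM replicate 1 (0.063), 0.20 mM replicate 3 (0.0758) or full medium replicate 2 (0.055).

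NDUFS8, a core subunit that holds iron-sulfur clusters, had 77.3, 65.7 and 79.7 CPM at 0.04 mM, against 97.4, 78.5 and 85.5 CPM in full medium, and fell by 0.24 (SE 0.0756, adjusted p = 0.0313). The groups overlapped, and each pair was lower at 0.04 mM. At 0.20 mM it had 75.3, 60.6 and 69.9 CPM, all below full medium, and fell by 0.35 (SE 0.0730, adjusted p = 0.00169). NDUFS3 had 62.4, 65.9 and 63.2 CPM at 0.04 mM, against 69.6, 84.4 and 75.3 CPM in full medium, without overlap, and fell by 0.26 (SE 0.0844, adjusted p = 0.0405). With single libraries of the 2 groups left out in turn, the call of NDUFS8 at 0.20 mM held in 6 of 6. It was lost there with ERCC scaling (−0.393, adjusted p = 0.0644), after thinning all libraries to equal depth (−0.345, adjusted p = 0.0818) and with the GC and length offset (−0.175, adjusted p = 0.135). At 0.04 mM the call of NDUFS8 ended in 4 of 6 (without 0.04 mM replicates 1 or 2 or full medium replicates 1 or 2, adjusted p up to 0.174). That of NDUFS3 at 0.04 mM ended in 5 of 6 (adjusted p up to 0.182), holding without full medium replicate 1.

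In complex III, CYC1 had 208, 212 and 206 CPM at 0.04 mM, against 225, 268 and 262 CPM in full medium, and fell by 0.26 (SE 0.0741, adjusted p = 0.0146). UQCR10, a small accessory subunit, had 54.1, 51.9 and 44.3 CPM at 0.04 mM, against 63.9, 60.9 and 59.6 CPM in full medium, and fell by 0.28 (SE 0.0856, adjusted p = 0.0245). UQCR11 fell by 0.59 (SE 0.184, adjusted p = 0.0287) at a low level, 12.7, 12.8 and 10.5 CPM at 0.04 mM against 14.9, 22.4 and 16.9 CPM in full medium. None of the 3 overlapped between the groups at 0.04 mM. CYCS, cytochrome c, had 134, 149 and 100 CPM at 0.04 mM, against 146, 167 and 150 CPM in full medium, which overlap, and fell by 0.26 (SE 0.0805, adjusted p = 0.0275). Each of these 4 calls ended without full medium replicate 2 or 3. CYC1 also ended without 0.04 mM replicates 2 or 3, UQCR10 without 0.04 mM replicates 1 or 3, UQCR11 without any of the 3 and CYCS without 0.04 mM replicate 3, with adjusted p-values up to 0.117, 0.116, 0.255 and 0.243 in that order of genes. The complex III mRNA of the other genome, MT-CYB, rose in the same libraries.

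In complex V, ATP5MC1, which encodes the c subunit of the rotor ring, had 69.0, 66.7 and 66.2 CPM at 0.04 mM, against 81.5, 79.4 and 92.8 CPM in full medium, without overlap, and fell by 0.32 (SE 0.0818, adjusted p = 0.0074). ATP5F1D, the delta subunit of the central stalk, had 100, 86.3 and 88.1 CPM at 0.04 mM, against 123, 93.4 and 103 CPM in full medium, with overlap, and fell by 0.22 (SE 0.0729, adjusted p = 0.0441), a call that ended with each library left out except full medium replicate 2 (adjusted p up to 0.165). That of ATP5MC1 ended without full medium replicate 3 (adjusted p = 0.061). In complex IV the 11 changes at 0.04 mM ran between −0.35 and 0.16, and the smallest adjusted p was 0.107, that of COX6A1 (−0.35, SE 0.147), which shares 30.6% of its exonic bases with another gene. NDUFA13 had the lowest change of all members at −0.97 (SE 0.45, adjusted p = 0.155), on 4 to 40 counts per library and with 26.5% of its exonic bases shared with other genes.

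The count of 10 at 0.04 mM depended on the libraries. Without full medium replicate 3 it was 3, without full medium replicate 2 it was 4 (1 rose and 3 fell), and without 0.04 mM replicate 1, 2 or 3 it was 6, 4 and 4. Of all genes 589, 578, 648, 395 and 603 fell in these fits, in that order, against 861 with all libraries. With an offset for GC content and length 5 nuclear members fell, of which 2, NDUFB10 and CYCS, were among the 10. The 10 that fell had a median exonic GC content of 55.3%, against 47.3% in the other 66 tested, a median exon length of 1120 bp, against 1604 bp, and lie on 8 chromosomes. None of the 10 shared 20% or more of its exonic bases with another gene, as 17 of the other 66 did.

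**Figure D5:**
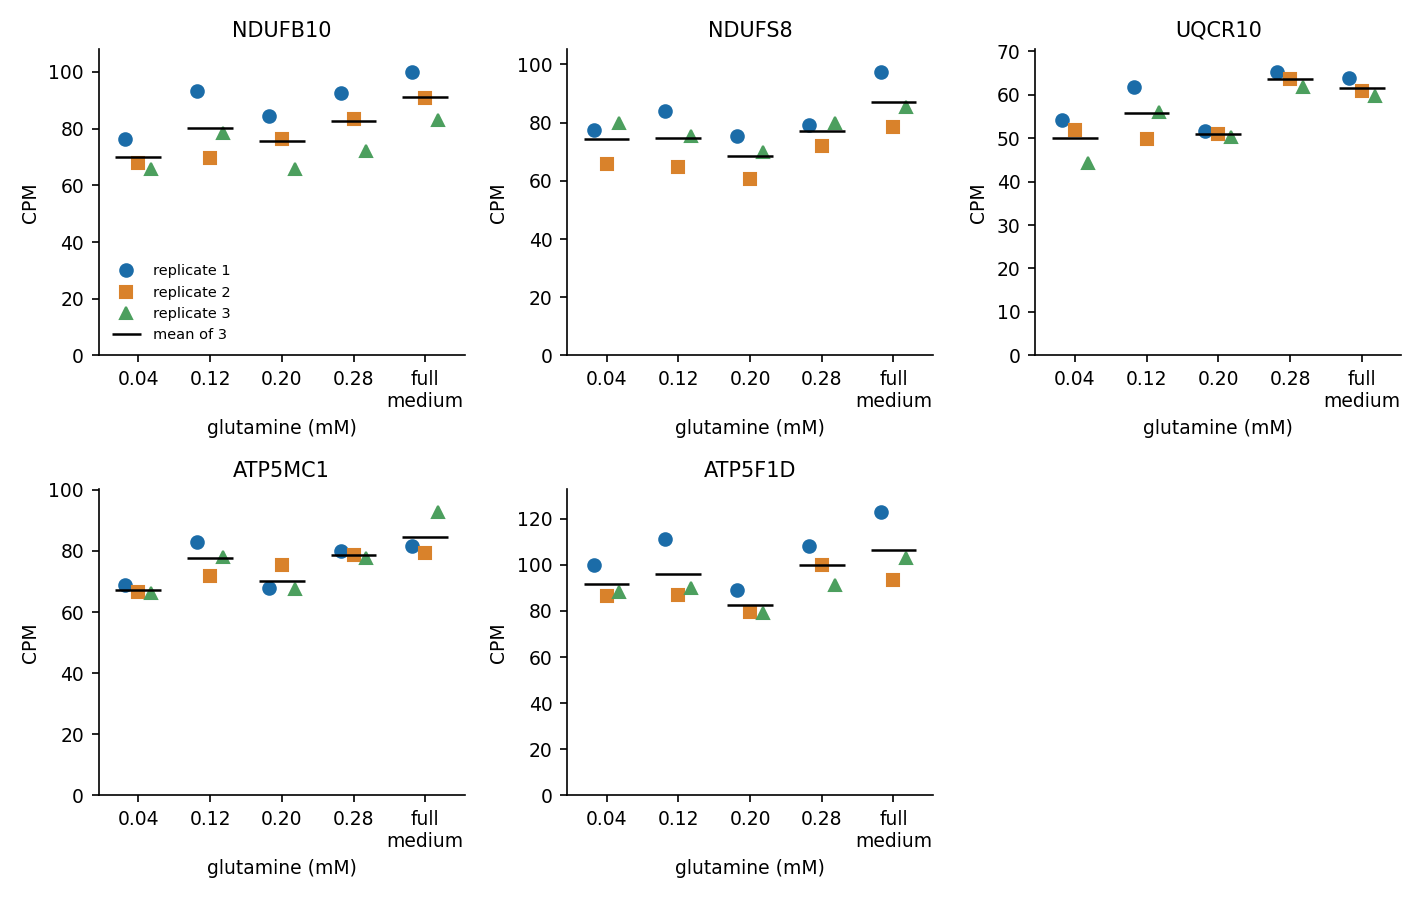
Level (CPM) per library of NDUFB10, NDUFS8, UQCR10, ATP5MC1 and ATP5F1D, chosen from members that fell at both 0.04 and 0.20 mM, comparisons that share the 3 full medium libraries. Symbols are replicate numbers and bars the mean of 3 libraries; ATP5MC1 has 66.2 to 69.0 CPM at 0.04 mM, against 79.4 to 92.8 CPM in full medium.

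At 0.20 mM nuclear members passed in both directions: 8 of 76 fell (10.5%, with 7.15% of all genes falling) and 2 rose (2.63%, with 7.67% of all genes rising). ATP5F1D had 89.2, 79.5 and 79.3 CPM at 0.20 mM, against 123, 93.4 and 103 CPM in full medium, without overlap, and fell by 0.36 (SE 0.0708, adjusted p = 0.000835). NDUFV3, a small accessory subunit, had 70.7, 58.4 and 72.9 CPM at 0.20 mM, against 90.8, 79.5 and 80.6 CPM in full medium, and fell by 0.32 (SE 0.0761, adjusted p = 0.00472). ATP5MC1 fell by 0.27 (SE 0.0783, adjusted p = 0.0196), UQCR10 by 0.27 (SE 0.0818, adjusted p = 0.0229) and NDUFS7, a core subunit that shares 55.1% of its exonic bases with other genes and is therefore uncertain, by 0.34 (SE 0.111, adjusted p = 0.0344). The 2 that rose encode subunits of the central stalk of ATP synthase, as ATP5F1D does: ATP5F1C, the gamma subunit, had 141, 227 and 201 CPM at 0.20 mM, against 102, 200 and 160 CPM in full medium, and rose by 0.32 (SE 0.0826, adjusted p = 0.00915), and ATP5F1E, the epsilon subunit, which shares 23.2% of its exonic bases with TUBB1, rose by 0.27 (SE 0.0919, adjusted p = 0.0414). With single libraries left out, NDUFV3 and ATP5F1D passed in 6 of 6. ATP5F1D was lost with the GC and length offset (−0.188, adjusted p = 0.0939) and after thinning (−0.169, adjusted p = 0.431), and NDUFV3 with ERCC scaling (−0.367, adjusted p = 0.0915) and after thinning (−0.195, adjusted p = 0.432). ATP5F1C did not without 0.20 mM replicate 2 or full medium replicate 1, ATP5F1E without any library but full medium replicate 2, ATP5MC1 without 0.20 mM replicates 1 or 3 or full medium replicate 3, UQCR10 without 0.20 mM replicates 1 or 2 or full medium replicates 2 or 3, and NDUFS7 without 0.20 mM replicate 1 or any full medium library. The highest adjusted p-values of these were 0.0666, 0.205, 0.145, 0.14 and 0.4 in that order of genes. The count of 10 was 4 without 0.20 mM replicate 1 and 6 without 0.20 mM replicate 3 or full medium replicate 3. Of all genes 1061 rose and 989 fell with all libraries, and 496 and 481, 555 and 558, and 882 and 681 in these fits. Without the block 0 nuclear members passed in edgeR or DESeq2, with 7 at an unadjusted p under 0.05 in each.

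At 0.12 and 0.28 mM 0 of 76 nuclear members passed with the block in edgeR or DESeq2. Of all genes tested, 4.41% rose and 3.9% fell in edgeR at 0.12 mM, and 1.23% and 0.846% at 0.28 mM. In DESeq2 with the block 573 of all genes rose and 523 fell at 0.12 mM, and 208 and 131 at 0.28 mM. Among the 76, unadjusted p-values under 0.05 with the block numbered 13 at 0.12 mM and 4 at 0.28 mM, and without it 0 and 1. The median changes were 0.00778 and −0.00298. Among the smallest adjusted p-values at 0.12 mM were those of COX7A2 (0.29, SE 0.0945, adjusted p = 0.0543), NDUFS8 (−0.22, SE 0.0736), NDUFA10 (−0.19, SE 0.0718), NDUFV1 (−0.19, SE 0.0733) and NDUFV3 (−0.19, SE 0.0767). At 0.28 mM they belonged to UQCR11 (−0.55, SE 0.172, adjusted p = 0.088), NDUFS3 (−0.20, SE 0.0809), NDUFS8 (−0.18, SE 0.0726), NDUFV3 (−0.17, SE 0.0757), NDUFS7 (−0.22, SE 0.111) and NDUFB10 (−0.14, SE 0.0757). Without 0.12 mM replicate 2, 9 nuclear members rose at 0.12 mM, 3 rose without full medium replicate 2, and 1 fell without full medium replicate 1. Of all genes, 293 rose in the first of these fits, 357 rose in the second and 705 fell in the third. At 0.28 mM 1 nuclear member fell without 0.28 mM replicate 1 or full medium replicate 1, where 8 and 332 of all genes fell.

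Between the lowest and the highest of the limited concentrations, 0.04 against 0.28 mM, 0 of 76 passed with the block in edgeR or DESeq2 (15 and 12 at an unadjusted p under 0.05), and 0 without it (3 in each). Of all genes, 0.0145% rose and 0.0289% fell in edgeR with the block, and 7 rose and 9 fell in DESeq2 with the block. The median change of the 76 was −0.0844, against 0.00435 over all genes tested. Values below 0 were 57 of 76, a count given without its share over all genes and not read as a result about the members. UQCR10 had 54.1, 51.9 and 44.3 CPM at 0.04 mM, against 65.2, 63.5 and 61.8 CPM at 0.28 mM, without overlap, and changed by −0.33 (SE 0.0851, adjusted p = 0.181). COX6A1 changed by −0.50 (SE 0.145), COX8A by −0.44 (SE 0.135), NDUFB10 by −0.24 (SE 0.0799), ATP5MC1 by −0.22 (SE 0.0818) and ATP5PO by −0.41 (SE 0.155). COX6A1 and COX8A, small subunits of complex IV, thus had the largest of these differences from 0.28 mM, while neither passed against full medium at any concentration. COX6A1 shares 30.6%, COX8A 34.5% and ATP5PO 70.3% of its exonic bases with other genes, so these 3 levels are uncertain.

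Many nuclear respiratory genes carry promoter sites for the factors NRF1 and GABP, the second of which binds ETS motifs, and for YY1. Promoters in RefSeq (GRCh38.p14) were matched for 63 of the 78 nuclear members, and the 250 bases before each start were searched on both strands. The NRF1 letters GCGCATGC or GCATGCGC were in 11 of 63 member promoters (17.5%) and in 2.81% of all 27305 promoters. The ETS letters CCGGAAG or CTTCCGG were in 15 of 63 (23.8%) and 8.82% of all, and the YY1 letters AAGATGGC or GCCATCTT in 1 of 63 (1.59%) and 1.37% of all. Of the 9 matched members that fell at either 0.04 or 0.20 mM, 2 held the NRF1 letters, 2 the ETS letters and 0 the YY1 letters.

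The 200 bases before the start of 5 of these genes are given 5′ to 3′ on the gene's strand, with any matched motif in capitals, to set members with and without a match side by side. NDUFB10 (chr16:1959338-1959537, plus strand) and ATP5MC1 (chr17:48892587-48892786, plus strand), which fell at both concentrations, hold none of the 3 motifs. NDUFS3 (chr11:47578874-47579073, plus strand) and UQCR11 (chr19:1605463-1605662, minus strand), which fell at 0.04 mM, hold 2 ETS matches each, and CYCS (chr7:25125261-25125460, minus strand) holds 1 NRF1 match.
NDUFB10: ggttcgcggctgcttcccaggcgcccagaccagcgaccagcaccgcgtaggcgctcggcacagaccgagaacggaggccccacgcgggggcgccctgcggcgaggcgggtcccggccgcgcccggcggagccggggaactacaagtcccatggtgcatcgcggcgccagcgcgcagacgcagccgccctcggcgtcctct
ATP5MC1: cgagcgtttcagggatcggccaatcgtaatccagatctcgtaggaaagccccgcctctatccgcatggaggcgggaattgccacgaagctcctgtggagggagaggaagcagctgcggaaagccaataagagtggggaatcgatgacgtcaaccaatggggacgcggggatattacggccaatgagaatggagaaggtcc
NDUFS3: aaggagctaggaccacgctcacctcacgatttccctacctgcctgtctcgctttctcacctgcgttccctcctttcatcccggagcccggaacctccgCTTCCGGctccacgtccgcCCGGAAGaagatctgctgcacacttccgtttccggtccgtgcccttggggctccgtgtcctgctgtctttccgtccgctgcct
UQCR11: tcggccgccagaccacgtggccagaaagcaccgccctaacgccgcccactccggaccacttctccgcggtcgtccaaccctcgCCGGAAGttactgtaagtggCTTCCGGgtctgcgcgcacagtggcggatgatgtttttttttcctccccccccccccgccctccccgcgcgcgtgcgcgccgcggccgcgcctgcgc
CYCS: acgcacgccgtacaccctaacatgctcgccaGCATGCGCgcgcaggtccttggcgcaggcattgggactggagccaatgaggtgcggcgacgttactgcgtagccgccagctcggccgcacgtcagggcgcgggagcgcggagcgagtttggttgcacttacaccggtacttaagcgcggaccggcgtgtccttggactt
The ETS matches begin 102 and 83 bases before the start in NDUFS3 and 117 and 97 bases before it in UQCR11, once on each strand, and the NRF1 match in CYCS begins 169 bases before it. A match describes these letters and shows no binding.

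Other genes of the pathway were taken from lists that the membership rule did not use. None of the 4 complex II subunits, all nuclear, passed at any concentration, and at 0.04 mM SDHB changed by −0.22 (SE 0.1), SDHA by −0.20 (SE 0.183), SDHD by 0.05 (SE 0.134) and SDHC by −0.02 (SE 0.0873). Of 58 assembly factors tested, 0 rose and 7 fell (12.1%) at 0.04 mM, with a median change of −0.101, where 7.21% of all genes rose and 6.23% fell. Among them UQCC3 (−0.73, SE 0.192, adjusted p = 0.00953) and UQCC1 (−0.36, SE 0.0948, adjusted p = 0.00945) serve the assembly of complex III and its cytochrome b, and COA1 (−0.39, SE 0.0997, adjusted p = 0.00793) and ACAD9 (−0.27, SE 0.0769, adjusted p = 0.0163) that of complex I or IV. Assembly factors numbered 0 that rose and 3 that fell (5.17%) at 0.12 mM, 1 (1.72%) and 5 (8.62%) at 0.20 mM, and 0 and 2 (3.45%) at 0.28 mM. Of all genes 4.41% rose and 3.9% fell at 0.12 mM, 7.67% and 7.15% at 0.20 mM, and 1.23% and 0.846% at 0.28 mM.

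Of 33 genes of mitochondrial transcription and RNA processing tested, 0 rose and 1 fell (3.03%, with 6.23% of all genes falling) at 0.04 mM. It was ELAC2, the nuclease that cuts the 3′ ends of tRNAs out of the long mitochondrial transcripts (−0.33, SE 0.0645, adjusted p = 0.000735), and it also fell at 0.12 mM (−0.25, SE 0.0632, adjusted p = 0.0103) and 0.20 mM (−0.25, SE 0.0627, adjusted p = 0.00631). PRORP, the catalytic subunit of the enzyme that cuts the 5′ ends, changed by 0.55 at 0.04 mM (SE 0.192, adjusted p = 0.0518). At 0.20 mM TFB2M, a mitochondrial transcription factor, rose (0.32, SE 0.0778, adjusted p = 0.00517), and POLRMT, the mitochondrial RNA polymerase, fell (−0.25, SE 0.0728, adjusted p = 0.0192). The list counted 0 that rose and 2 that fell (6.06%, with 3.9% of all genes falling) at 0.12 mM, 2 and 2 (6.06% each, with 7.67% and 7.15% of all genes) at 0.20 mM and 0 of each at 0.28 mM (1.23% and 0.846% of all genes).

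Of 16 genes of mitochondrial DNA replication and upkeep, 1 rose and 1 fell at 0.04 mM (6.25% each, with 7.21% of all genes rising and 6.23% falling). RRM2B, a subunit of a ribonucleotide reductase that supplies nucleotides for mitochondrial DNA, rose (0.36, SE 0.0954, adjusted p = 0.01), and LIG3, the mitochondrial DNA ligase, fell (−0.38, SE 0.0757, adjusted p = 0.000874). LIG3 fell at the other concentrations too, by 0.33 at 0.12 mM (adjusted p = 0.00434), by 0.36 at 0.20 mM (adjusted p = 0.00129) and by 0.31 at 0.28 mM (adjusted p = 0.0202). Of 17 regulators of respiratory chain transcription tested, 2 rose (11.8%) and 3 fell (17.6%) at 0.04 mM, with the same shares of all genes as above, among them PPARA (0.60, SE 0.115, adjusted p = 0.000642) and NFE2L2 (0.25, SE 0.0687, adjusted p = 0.0117) that rose, and PPRC1, a PGC-1-related coactivator (−0.37, SE 0.068, adjusted p = 0.000396), and HCFC1, a host cell factor that works with it (−0.29, SE 0.0695, adjusted p = 0.005), that fell. The regulators counted 2 that rose and 3 that fell at 0.12 mM (11.8% and 17.6%, with 4.41% and 3.9% of all genes) and at 0.20 mM (with 7.67% and 7.15% of all genes), and 0 and 1 at 0.28 mM (5.88% fell, with 0.846% of all genes), where PPRC1 fell (−0.27, SE 0.0662, adjusted p = 0.0242). Without the block none of the list members named here passed in edgeR.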

How the data were processed

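RNA-seq was deposited as a table of raw counts per Ensembl gene and ERCC spike-in (92 standards) for 15 libraries, and these counts were used as the authors deposited them. The build is GRCh38.p14 (hg38), per the submitters' processing notes, and the sources used here name no aligner, counter or strand rule. Libraries were depleted of ribosomal RNA with KAPA RiboErase and spiked with ERCC Mix 2, per the labels' protocols. ERCC made up 1.03 to 1.58% of counts. Symbols came from the reference tables for 42343 of 62754 gene IDs, and 67 matching symbols that were not protein-coding were left out. All members and lists were chosen with earlier results of these data known.

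Counts were fitted with edgeR 4.0.16 under R 4.3.3 over all 15 libraries (filterByExpr with minimum count 10 and minimum total 15, TMM, quasi-likelihood test, Benjamini-Hochberg over 13828 genes, adjusted p threshold 0.05), with 1 term per group and no block. A second fit that adds replicate number as a block is printed because the numbers paired the libraries: deviations from the group means correlated at 0.184 to 0.489 in 30 of 30 pairs of libraries that share a number, all above 0.1, and at −0.406 to 0.0549 in 60 pairs that do not. The labels do not say what the numbers share. DESeq2 1.42.0, ERCC scaling, other filters, a GC and length offset (4 spline degrees of freedom), thinning to 3704170 counts and each library left out in turn were alternatives. CPM used TMM-scaled library sizes, and levels per kb used merged exon lengths of GENCODE 29. Steps were tested on simulated data. Tables and figures used Python 3.11.15 with pandas 2.3.3.

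Named were all mitochondrial mRNAs, nuclear members past the test at 0.04 mM, up to 6 nuclear members with the smallest adjusted p in each other comparison, the members highest and lowest per length in each complex, and up to 4 genes per other list. At 0.20 mM nuclear members past the test beyond these 6 were named after their values were seen, as were LIG3, ELAC2 and PPRC1 across concentrations. A member that this rule would name is not reported here.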

Additional observations from a re-analysis of the deposited data

How the results depend on the processing

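With 3 libraries per group and the replicate numbers setting much of the spread, nearly all calls rest on the replicate block. With the block and without it, nuclear calls numbered 10 and 0 at 0.04 mM and 10 and 0 at 0.20 mM, and mitochondrial calls 6 and 0, 2 and 0, 1 and 0, and 3 and 0 at 0.04 mM, 0.12 mM, 0.20 mM and 0.28 mM. The values that follow are all with the block unless stated, and the causes of these shifts were not tested.

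The counts below do not say which genes were called, and counts over all genes also shifted between settings. At 0.04 mM the count of nuclear calls, 10, was 6 with the 2 groups alone, 1 with ERCC scaling, 5 with the GC and length offset, 6 without the libraries over 1% mitochondrial rRNA, 2 without replicate 3 in any group and 1 after thinning. Of the 10 genes, 0 were called after thinning and 2 with the offset. Over all genes 861 fell at 0.04 mM with the block, 224 with ERCC scaling, 838 with the offset and 368 after thinning. At 0.12 mM the count of 0 was 2 with the 5 CPM filter, 1 with DESeq2 size factors, 8 with ERCC scaling, 2 with the GC and length offset and 2 with no filter. With ERCC scaling 76 of 13828 genes rose and 1130 fell there. At 0.20 mM the count of 10 was 1 with ERCC scaling, 3 with the offset, 4 without replicate 3 in any group and 2 after thinning, where 1, 2, 3 and 1 of the 10 genes were called. Of all genes there, 1061 rose and 989 fell. With ERCC scaling these were 141 and 280, with the offset 381 and 526, and after thinning 296 and 372. At 0.28 mM the count of 0 was 1 with ERCC scaling and 1 with no filter, and at 0.04 against 0.28 mM 2 with the 2 groups alone and 2 with no filter. Leaving out each library gave 3 to 10 nuclear calls at 0.04 mM, 0 to 9 at 0.12 mM, 4 to 11 at 0.20 mM and 0 to 1 at 0.28 mM.

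The count of 6 mitochondrial calls at 0.04 mM was 10 with no filter (9 rose and 1 fell), and 3 with no filter and no block. It was 9 with the GC and length offset and 7 with the 2 groups alone. It was 5 after thinning (MT-ND6 lost) and 4 with ERCC scaling (MT-ND2 and MT-CO1 lost). Without replicate 3 in any group 4 rose and 1 fell. Of all genes 997 rose with the block, 819 with no filter and 727 with the offset. Those rising were 367 after thinning, 282 with ERCC scaling and 589 without replicate 3. The count of 2 at 0.12 mM was 1 with DESeq2, with ERCC scaling, with the 2 groups alone, after thinning, without the libraries over 1% mitochondrial rRNA or without replicate 3, and 4 with no filter (1 with no filter and no block). The 1 at 0.20 mM, MT-CYB, was not called with DESeq2 or ERCC scaling (0 calls), and the count was 2 with the offset or with no filter, MT-CYB and 1 that fell. Without replicate 3 in any group the count was 2, both of which fell, and after thinning 1, which fell, while MT-CYB was not called (0.301, adjusted p = 0.0722, after thinning). The count of 3 at 0.28 mM was 1 with DESeq2 and 0 without replicate 3, and 1 with no filter and no block. Of these 3, MT-ND5 was not called with ERCC scaling (0.318, adjusted p = 0.248), with the 5 CPM filter (0.432, adjusted p = 0.0512) or after thinning (0.415, adjusted p = 0.0718), nor MT-ATP8 after thinning (0.744, adjusted p = 0.143), in edgeR. Leaving out each library gave 4 to 11 calls at 0.04 mM, 1 to 7 at 0.12 mM, 0 to 5 at 0.20 mM and 0 to 12 at 0.28 mM, and 0 to 1 at 0.04 mM with no block.

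At 0.04 mM MT-CO2 turned to −0.0207 without full medium replicate 3 and −0.0535 without replicate 3 in any group, and MT-ND3 to 0.118 without full medium replicate 1. Of 702 values of single genes under alternatives, 452 kept their direction and side of the threshold, 230 lost the call, 17 gained it and 3 changed sign. The 702 include mitochondrial mRNAs that were not called at 0.04 mM, which had no call to lose, so the share of calls lost is larger than this count shows. Depth limits the genes under 100 counts, 10 of the nuclear members.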
